A study of Mus musculus with 2 samples.

Results

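Class II-high Ccr2 cells were picked from the immune infiltrate of mouse melanomas by their transcript counts, and 200 of the 12815 barcodes kept over 2 libraries met the rule. They were 117 of 7086 barcodes in the control library and 83 of 5729 in the library labelled knockout. A barcode was kept if it showed 200 or more genes and no more than 10% mitochondrial transcripts. A member had at least 1% of its unique molecular identifiers (UMIs, counted transcript molecules) in the class II genes H2-Aa, H2-Ab1 and H2-Eb1, and at least 2 Ccr2 UMIs. It had no UMI of Cd209a, Xcr1 or Clec9a, which mark conventional dendritic cells, fewer than 3 of Ccr7, of Siglech and of Chil3, and fewer than 5 of Arg1. The sum of Ccl2, Ccl7 and Ccl12 and that of C1qa, C1qb and C1qc each lay below 0.2% of its UMIs, and the Cd3 and Cd79 sums were at most 1 UMI. These values chose the cells, so the genes of the rule are given below as description only.

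The tumors were grown from B16F10, a transplantable mouse melanoma line, under the skin of C57BL/6 hosts and taken on day 14. Control hosts were Usp18f/f, in which Usp18 is floxed. The other hosts were Usp18f/f LysM-Cre, in which Cre recombinase is expressed from the Lyz2 locus, a gene of myeloid cells. Both groups carry floxed Usp18 alleles, and the presence of Cre is the labelled difference. Live CD45+ cells were sorted from 4 pooled tumors per group, and each pool gave 1 library with the 10x Genomics 3' chemistry. There is thus no replicate and no test between the groups, and genotype, pool and library cannot be told apart. All intervals are 95% intervals of counting error only. The age and sex of the hosts were not given in the sources used here.

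Monocytes leave the bone marrow through Ccr2, the receptor for Ccl2, Ccl7 and Ccl12, and enter inflamed tissue and tumors. There they lose Ly6c and can take on class II expression on the way to macrophages or to cells that share features with dendritic cells. Class II molecules present peptides to helper T cells. Cd74 is their invariant chain, H2-DM loads the peptides, H2-O restrains H2-DM, and Ciita is the transactivator of the class II genes. Usp18 removes the ubiquitin-like protein Isg15 from its targets and limits type I interferon signalling at the receptor chain Ifnar2.

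The targeted gene went against the label, and not only in these cells. Usp18 was found in 11 of 117 control cells and 20 of 83 cells of the library labelled knockout. Its level was 12.6 and 51.1 CPM (UMIs of the gene per 1000000 UMIs of the population), 4.05-fold higher in the library labelled knockout (interval 2.05 to 8.59). In the comparison populations defined below, Usp18 was likewise higher in classical monocytes (6.72-fold), Cd209a dendritic cells (5.45-fold) and C1q macrophages (2.79-fold). In B cells it was 1.75-fold, within counting error (0.956 to 3.14). Reads of this chemistry lie near the 3' end, and which exons are floxed was not given in the sources used here, so the count does not show whether the message is intact. Lyz2, the Cre locus and the gene of macrophage lysozyme, went with the label, at 5261 CPM in control and 10.5 in the library labelled knockout. Its near-identical paralog Lyz1 was at 33.6 and 343 CPM, a value that is uncertain because the counting can split such copies and because 27.3% of its UMIs came from 1 cell. Host sex also differed between the pools. Xist without a Y-linked UMI was found in 27 control cells and 69 of the library labelled knockout, and a Y-linked UMI without Xist in 57 and 7 cells. These are called Xist cells and Y cells below, and values within each of these subsets are given beside some of the differences. The median member had 7415 UMIs in control and 7283 in the library labelled knockout, with summed counts of 951697 and 665621. Both libraries together shared 8 barcode sequences, and 0 of the members were among them.

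The 5 markers of the population's label, which calls these cells monocytes, were not carried by the same cells. H2-DMb1, a chain of H2-DM, was broad, with a UMI in 112 of 117 control cells and 74 of 83 cells of the library labelled knockout. Ccr2 is fixed by the rule, with a median of 10 UMIs per cell in control and 8 in the library labelled knockout. The other 3 markers were found in a minority. Mgl2, a lectin of dendritic cells and alternatively activated macrophages, had a UMI in 26.5% and 25.3% of cells. Ear2, a ribonuclease also expressed by nonclassical monocytes, had one in 17.9% and 13.3%, and Cxcl9, an interferon-gamma-induced chemokine for T cells, in 5.13% and 14.5%.

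These shares lay above those of B cells, which served as a rough guide to free RNA. The level of free RNA itself was not estimated. After each cell was thinned to 1000 UMIs, which left out 0 control cells and 4 of the library labelled knockout, Mgl2 was found in 14.5% and 17.7%, Ear2 in 5.98% and 6.33%, and Cxcl9 in 4.27% and 8.86%. In B cells, which should lack these genes, the thinned shares were 0.459% and 0.964% for Mgl2, 0.306% and 0.241% for Ear2, and 0.230% and 0.482% for Cxcl9. The median B cell had 1549.5 and 1833.5 UMIs before thinning. H2-DMb1, which B cells also express, was found in 45.3% and 53.2% of thinned members and in 11.2% and 10.8% of thinned B cells.

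Among members thinned to 2000 UMIs, Cxcl9 was found in 4 of 116 control cells and 6 of 74 cells of the library labelled knockout, and 0 of them held Ear2 or Mgl2. Ear2 and Mgl2 were found together in 5 control cells and 2 of the library labelled knockout, against 2.35 and 0.946 if the genes had been placed independently. Counts this small do not order the overlaps. The cells are called class II-high Ccr2 cells here, after the rule, because the markers point to no single monocyte type.

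In level, Ear2 stood at 119.8 CPM in control (98.8 to 144) and 75.1 in the library labelled knockout (55.8 to 99.03). Cxcl9 stood at 83.0 and 239 CPM, in 6 and 12 cells. Mgl2 stood at 309 and 430 CPM, and H2-DMb1 at 732 and 1007. In summed UMIs, Ear2 was thus lower, and the other 3 higher, in the library labelled knockout than in control, beyond counting error in each case. Their folds were 1.59 lower for Ear2 (1.13 to 2.27) and 2.88 (2.18 to 3.82), 1.39 (1.18 to 1.64) and 1.37 (1.23 to 1.53) higher for Cxcl9, Mgl2 and H2-DMb1. These intervals take UMIs as independent, although many can come from few cells. By thinned share of cells, the intervals of the libraries overlapped for each of these genes. Cxcl9 had 4.27% (1.40 to 9.69%) and 8.86% (3.64 to 17.4%), and Ear2, at 5.98% and 6.33%, was not lower. The host-sex subsets did not bear out the summed differences of Ear2 and Mgl2. Ear2 had a log2 ratio of 0.50 in Xist cells, and in Y cells it had 92 UMIs in control and 0 in the library labelled knockout. Mgl2 had log2 ratios of -0.27 and -1.74. H2-DMb1 was higher in both subsets, by 0.42 and 0.39. Cxcl9 was higher by 0.60 in Xist cells and had fewer than 20 UMIs in Y cells.

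**Figure D1:**
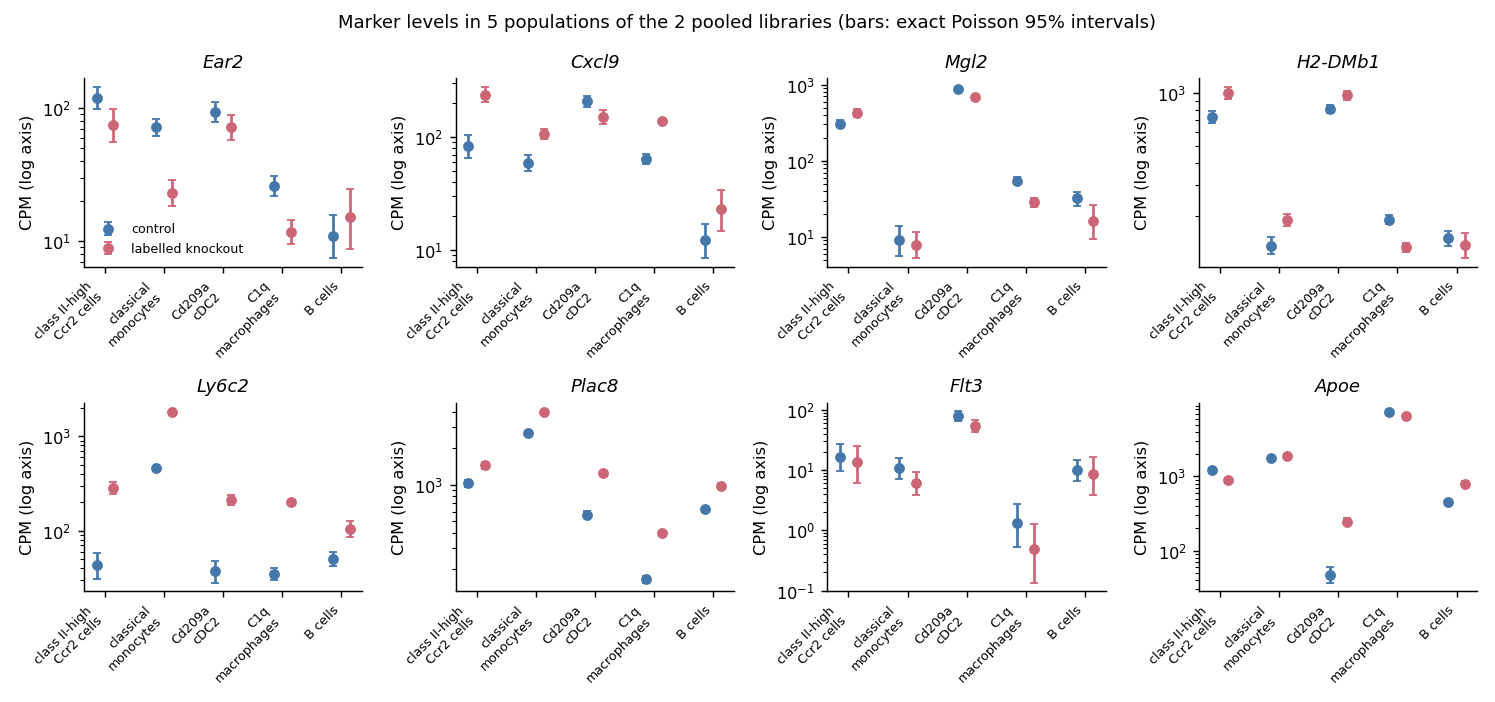
Levels in CPM on a log axis of Ear2, Cxcl9, Mgl2, H2-DMb1, Ly6c2, Plac8, Flt3 and Apoe in class II-high Ccr2 cells, classical monocytes, Cd209a dendritic cells (cDC2), C1q macrophages and B cells, for the control library and the library labelled knockout, with exact Poisson 95% intervals. In class II-high Ccr2 cells H2-DMb1 (732 and 1007 CPM) lies at the level of cDC2 (816 and 974), while Flt3 (16.8 and 13.5) lies below it (79.2 and 54.5).

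Among all kept barcodes, the share of class II-high Ccr2 cells differed between the libraries by less than counting error. They made up 1.65% of kept barcodes in control (1.37 to 1.98%) and 1.45% in the library labelled knockout (1.16 to 1.79%), and the intervals overlap. Of the barcodes with any Ccr2 UMI, they made up 4.40% and 2.83%, a log2 ratio of -0.63 that lay beyond counting error. A share moves with every other cell type in the sort, and B cells made up 18.9% and 7.37% of kept barcodes. The class II limit and the Cd209a limit were the ones that decided membership most often. The class II limit alone kept out 348 control cells and 329 of the library labelled knockout, Cd209a 175 and 124, Xcr1 and Clec9a 109 and 70, and Ccr2 96 and 60. The C1q limit alone kept out 86 and 32 cells, and the limit on Ccl2, Ccl7 and Ccl12 kept out 15 and 28.

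In summed level, cells on either side of the class II limit were alike in H2-DMb1 and unlike in Mgl2, Ly6c2 and Cxcl9. With both libraries summed, the 19 control cells and 15 of the library labelled knockout that lay up to 0.25 percentage points inside the limit had 209 CPM of Ear2, 264 of Mgl2, 793 of H2-DMb1, 154 of Ly6c2 and 11.01 of Cxcl9. The 14 and 16 cells up to 0.25 points outside it had 158 CPM of Ear2, 90.4 of Mgl2, 728 of H2-DMb1, 551 of Ly6c2 and 1026 of Cxcl9. At the Ccr2 limit, the 10 and 11 members with 2 Ccr2 UMIs had 0 CPM of Ear2 and 722 of Mgl2, and the 23 and 13 cells with 1 UMI had 63.3 and 105. At the Cd209a limit, the 15 and 17 cells with 1 Cd209a UMI had 601 CPM of Mgl2 and 48.8 of Apoe. All these bands are small and mix the libraries in different proportions. How many cells held the UMIs was not counted, so a few cells could set a level.

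For comparison, 3 other populations were taken by related rules, listed here with their cells in control and in the library labelled knockout. None of these rules limited Ccl2, Ccl7 and Ccl12 or Arg1, as the rule for members did. Classical monocytes had Ccr2, at least 3 Chil3 UMIs and a class II sum below 1% (365 and 521 cells). The cDC2, dendritic cells specialised for helper T cells, had at least 2 Cd209a UMIs and a class II sum of at least 1% (186 and 135), and C1q macrophages had at least 0.5% of UMIs in C1q genes (494 and 745). Levels were compared within each library as log2 of CPM plus 5. Genes that differed at least 2-fold in the same direction in both libraries were counted, with no test. The populations were cut from the same cells by transcript counts, so these differences are a description.

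Against classical monocytes, class II-high Ccr2 cells held more of the class II loading machinery and less of the early monocyte program. Of 8428 genes, 126 (1.5%) were at least 2-fold higher and 210 (2.49%) at least 2-fold lower in both libraries. Cd74 stood at 14835 CPM in control and 14708 in the library labelled knockout, against 1167 and 1675 in classical monocytes. Of 10 class II genes outside the rule, 7 were higher, namely H2-DMa, H2-DMb1, H2-DMb2, H2-Oa, H2-Ob, Cd74 and Ciita. The limits split the populations on the class II genes themselves, and also on Chil3, a gene of the classical monocyte list. Members lay below the Chil3 limit and classical monocytes at or above it. Lower levels of genes that go with Chil3 can thus follow from the choice of cells. The part of this choice in the differences from classical monocytes was not tested. Of 11 classical monocyte genes outside the rule, 8 were lower, among them Ly6c2, Plac8, F13a1, Vcan, Hp and Thbs1. The haptoglobin gene Hp stood at 23.1 and 24.0 CPM against 397 and 402. Ly6c2, the antigen that marks classical monocytes, stood at 43.1 and 287 CPM against 461 and 1793.

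Other genes also separated them from classical monocytes. Mgl2 was higher by 4.48 and 5.07 on the log2 scale, and Ifitm1, an interferon-inducible membrane protein, by 4.08 and 4.89. Klrd1, a lectin-like receptor chain known from natural killer cells, was higher by 2.98 and 3.81, and Il1r2, the decoy receptor of interleukin-1, by 2.93 and 3.27. Mgst1, a glutathione transferase, was lower, with log2 ratios of -4.15 and -4.45, and so was the chemokine Pf4, with -3.27 and -4.65. Of 12 chemokines outside the rule, 7 were lower and Cxcl16 was higher. Of 13 cell cycle genes, 9 were higher, among them Mki67, Top2a, Ccnb1 and Birc5. Thinned to 1000 UMIs, 8 of 117 control cells (6.84%, 2.998 to 13.03%) and 3 of 79 cells of the library labelled knockout (3.80%, 0.790 to 10.7%) had at least 3 cell cycle UMIs. Before thinning the shares were 32.5% and 27.7%. Classical monocytes had 0% in control and 0.192% in the library labelled knockout after thinning, and 8.77% and 12.3% before it.

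Against cDC2, the difference ran toward monocyte and macrophage genes. Of 7372 genes, 81 (1.1%) were higher and 35 (0.475%) lower in both libraries. Fn1, the fibronectin gene, stood at 542 CPM in control and 1092 in the library labelled knockout, against 71.2 and 101.9 in cDC2. Lpl (lipoprotein lipase), Vcan (versican), F10 (a coagulation factor), Slc11a1 (a phagosomal metal transporter) and Apoe (a lipid carrier of macrophages) were among the 10 highest. Of 11 classical monocyte genes outside the rule, 5 were higher, and of 9 macrophage genes outside the rule, 4 were higher, namely Apoe, Trem2, Adgre1 and Csf1r.

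Dendritic cell genes were lower only in part. Members had no Cd209a UMI and cDC2 at least 2, so lower levels of genes that go with Cd209a can follow from this choice. The part of the choice was not tested. Flt3, a growth factor receptor of dendritic cells and their precursors, stood at 16.8 and 13.5 CPM against 79.2 and 54.5, and Bcl11a, a transcription factor, at 45.2 and 27.0 against 162 and 141. Thinned to 1000 UMIs, 0% of members had Flt3 in either library, against 12.9% and 5.19% of cDC2. Before thinning the shares were 7.69% and 10.8% of members and 40.3% and 31.1% of cDC2. Of 12 genes of a cDC2 list, 2 were lower in both libraries, Flt3 and Clec10a, while Itgax, the integrin chain CD11c, stood at 171 and 155 CPM against 228 and 142. Of 10 class II genes outside the rule, 0 differed 2-fold in both libraries in either direction.

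Against C1q macrophages, 277 of 9770 genes (2.84%) were higher and 370 (3.79%) lower in both libraries. Ifitm1 stood at 1209 CPM in control and 1352 in the library labelled knockout, against 12.8 and 20.3. Napsa, an aspartic protease expressed by dendritic cells, stood at 332 and 409 CPM against 32.2 and 32.5. Il1r2, Klrd1, H2-Oa, H2-DMb2 and Cd24a were likewise among the 10 highest. Of 13 macrophage genes outside the rule, 10 were lower, among them Apoe, Mrc1, Trem2, Mertk and Gpnmb. Igf1, a growth factor, stood at 3.15 and 6.01 CPM against 259.9 and 186, and Vcam1, an adhesion molecule, at 4.20 and 3.005 against 145 and 115. Of 12 lysosomal genes, 6 were lower, among them Ctsd and Ctsb.

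By nearest neighbours, the members lay closer to cDC2 than to classical monocytes. For each member, the 15 nearest cells of its library were taken over 30 principal components of 2000 variable genes, with the genes of the rule and the interferon-stimulated genes left out. Other members made up 16.5% of neighbours in control and 15.5% in the library labelled knockout, 9.97 and 10.7 times their share of the library. The cDC2 made up 20.3% and 17.7%, 7.73 and 7.50 times their share. Classical monocytes made up 6.10% and 7.23%, 1.18 and 0.795 times theirs, and C1q macrophages 11.9% and 10.0%, 1.71 and 0.772 times theirs. Class II genes outside the rule, such as Cd74, were left in, and so were other genes that go with the limits. Members and cDC2 were both chosen with at least 1% class II and fewer than 3 Chil3 UMIs. Classical monocytes were chosen on the other side of both limits. The order is thus a description, and the part of this choice in it was not tested. Cells of none of the named populations made up 45.1% and 49.3% of neighbours.

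Within the population, Ear2, F13a1, Fn1 and Apoe were lowest in the cells with the most class II. Members were split at 1.5% and 2.5% class II UMIs into bands of 35, 49 and 33 control cells and 26, 32 and 25 cells of the library labelled knockout. From the lowest to the highest band, Ear2 went from 218 to 124 to 10.9 CPM in control and from 141 to 71.6 to 18.6 in the library labelled knockout. F13a1, a transglutaminase of monocytes, went from 229 to 129 to 25.5 CPM in control and from 95.3 to 95.4 to 18.6 in the library labelled knockout. Fn1 went from 765 to 621 to 197 CPM and from 2002 to 851 to 531. Apoe went from 1801 to 1411 to 349.5 CPM and from 1425 to 712 to 609.7.

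Napsa and Itgax ran the other way. Napsa went from 239 to 273 to 513 CPM in control and from 291 to 390 to 540 in the library labelled knockout, and Itgax from 128 to 173 to 215 and from 105 to 135 to 223. Mgl2 and Cxcl9 kept no common order, with Mgl2 at 215, 255 and 484 CPM in control and 321, 632 and 293 in the library labelled knockout. H2-DMb1 stayed between 706 and 761 CPM in control and between 898 and 1054 in the library labelled knockout. The class II percentage was the basis of the split, and the median depth of a band lay between 6892 and 7962 UMIs.

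**Figure D2:**
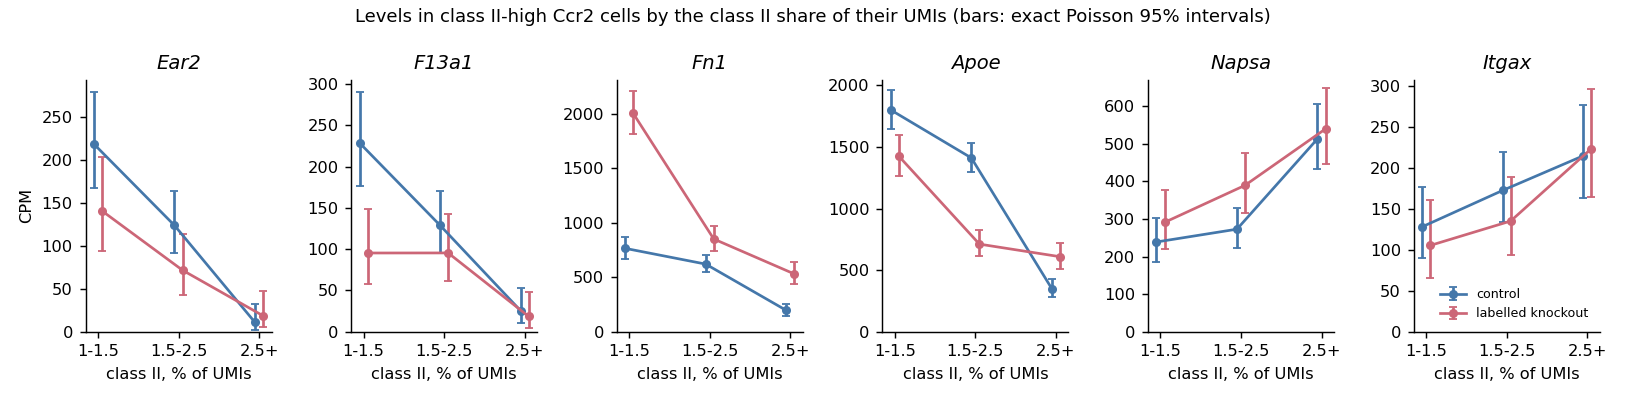
Levels in CPM of Ear2, F13a1, Fn1, Apoe, Napsa and Itgax in class II-high Ccr2 cells split into 3 bands of class II UMIs (1 to 1.5%, 1.5 to 2.5%, and 2.5% or more), for the control library and the library labelled knockout, with Poisson 95% intervals. Ear2, Fn1 and Apoe are lowest in the band with the most class II in both libraries, and Napsa and Itgax are highest there.

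Between the libraries, the summed counts of the members were compared as the log2 ratio of CPM plus 5, library labelled knockout over control. Of 7082 genes with at least 20 UMIs over both libraries, 111 (1.57%) were at least 2-fold higher and 152 (2.15%) at least 2-fold lower in the library labelled knockout. The median ratio over these genes was -0.01. A list of genes is described below by its median and its counts beside these values, and its genes are not independent replicates.

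Interferon-stimulated genes were higher in the library labelled knockout as a group. All 38 measured genes of a list of 44 had a positive ratio, with a median of 0.98, and 18 of them were at least 2-fold higher and 0 at least 2-fold lower, against 1.57% and 2.15% of all genes. Of the other 6, Mx2, Ifi209 and Ifi213 had no entry in the feature table, and Ifit3b, Ifi44 and Oas1g had fewer than 20 UMIs over both libraries. The summed level was 5064 CPM in control and 8484 in the library labelled knockout, 1.68-fold higher (1.61 to 1.74). The smallest ratio was 0.08 for Parp14, an ADP-ribosyltransferase, and the largest 2.27 for Isg15. Within the sex subsets the median was 0.92 in Xist cells, with 35 of 37 genes positive, and 1.34 in Y cells, with 24 of 24 positive. The second of these rests on 7 cells of the library labelled knockout.

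The leading genes span the classes of the antiviral response. Isg15, the ubiquitin-like modifier, stood at 58.8 CPM in 26 control cells and at 303 CPM in 40 cells of the library labelled knockout, 5.16-fold higher (3.82 to 7.06). Ifit3, which belongs to a complex that binds foreign RNA, stood at 16.8 and 93.1 CPM, 5.54-fold higher (3.16 to 10.3), a gene with a close copy in Ifit3b. Ifit1, which binds the ends of viral RNA, stood at 26.3 and 123 CPM, 4.69-fold higher (2.97 to 7.66). Irf7, the transcription factor that amplifies type I interferon, stood at 56.7 and 183 CPM, 3.23-fold higher (2.33 to 4.54), and was found in 23 and 37 cells. Bst2, the tetherin that holds budding virus, stood at 181 and 455 CPM, 2.52-fold higher (2.08 to 3.06). Each of these levels had counting intervals that did not overlap between the libraries.

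Ifitm3 and Ly6e, both abundant in control, differed less than the genes above. Ifitm3, a membrane protein that blocks viral entry, stood at 2225.5 CPM in control and 2943 in the library labelled knockout, 1.32-fold higher (1.24 to 1.41). Ly6e stood at 902 and 1316 CPM, 1.46-fold higher (1.33 to 1.61). Of the Schlafen genes, which act on growth and immune cell state, Slfn1 was 3.38-fold higher (2.43 to 4.77) and Slfn4 9.29-fold higher (3.22 to 36.6), the latter from 4 and 26 UMIs, of which 30% came from 1 cell. For Rsad2, which stood at 58.8 and 141 CPM, 39.3% of UMIs came from 1 cell.

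The upstream sequence of 3 of these genes and of the chemokine Cxcl10 is shown because each belongs to an interferon list, was at least 2-fold higher in the library labelled knockout, and holds GAAA, any 2 bases and GAAA again, a simplified form of the element through which type I interferon activates genes. Each line gives the 250 bases before the annotated start, 5' to 3' on the gene's strand, from RefSeq on GRCm38.p6, with matches on either strand in capitals (TTTC, any 2 bases and TTTC where the match is on the other strand). Isg15 lies at chr4:156200819-156201068 on the minus strand, Ifit3 at chr19:34583279-34583528 and Ifit1 at chr19:34640639-34640888 on the plus strand, and Cxcl10 at chr5:92348890-92349139 on the minus strand.
Isg15: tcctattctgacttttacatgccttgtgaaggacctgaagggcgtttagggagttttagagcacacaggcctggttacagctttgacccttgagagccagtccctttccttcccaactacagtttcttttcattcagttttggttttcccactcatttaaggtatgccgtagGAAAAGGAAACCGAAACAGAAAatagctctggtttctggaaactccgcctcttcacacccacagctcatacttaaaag
Ifit3: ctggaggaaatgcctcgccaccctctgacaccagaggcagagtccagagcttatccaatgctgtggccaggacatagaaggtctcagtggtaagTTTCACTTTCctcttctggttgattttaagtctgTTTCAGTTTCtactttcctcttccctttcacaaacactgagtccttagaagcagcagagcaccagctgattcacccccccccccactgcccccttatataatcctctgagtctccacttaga
Ifit1: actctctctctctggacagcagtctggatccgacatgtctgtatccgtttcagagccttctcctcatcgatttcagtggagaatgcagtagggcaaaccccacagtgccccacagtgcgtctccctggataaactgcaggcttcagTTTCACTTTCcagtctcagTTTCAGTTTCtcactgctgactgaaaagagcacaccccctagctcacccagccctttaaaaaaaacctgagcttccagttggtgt
Cxcl10: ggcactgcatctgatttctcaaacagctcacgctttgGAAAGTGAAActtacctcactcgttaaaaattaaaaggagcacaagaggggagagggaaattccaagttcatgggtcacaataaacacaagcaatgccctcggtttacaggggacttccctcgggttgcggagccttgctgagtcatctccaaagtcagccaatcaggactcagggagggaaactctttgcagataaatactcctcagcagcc
Isg15 held 3 overlapping matches, which begin 78, 72 and 66 bases before the start. Ifit3 held 2 matches, at 156 and 122 bases, Ifit1 held 2, at 104 and 85 bases, and Cxcl10 held 1, at 213 bases. Over windows of 300 bases, from 250 before to 50 after the start, 1079 of 27025 genes (3.99%) held the motif, and 236 of 5536 genes measured in the members (4.26%). It was found in 16 of the 30 measured interferon-stimulated genes with a promoter in the table (53.3%), in 9 of 17 interferon-gamma-associated genes (52.9%), in 4 of 17 class I genes, in 1 of 10 class II genes and in 0 of 9 classical monocyte genes. A match is a string of letters and not a measured binding site.

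**Figure D3:**
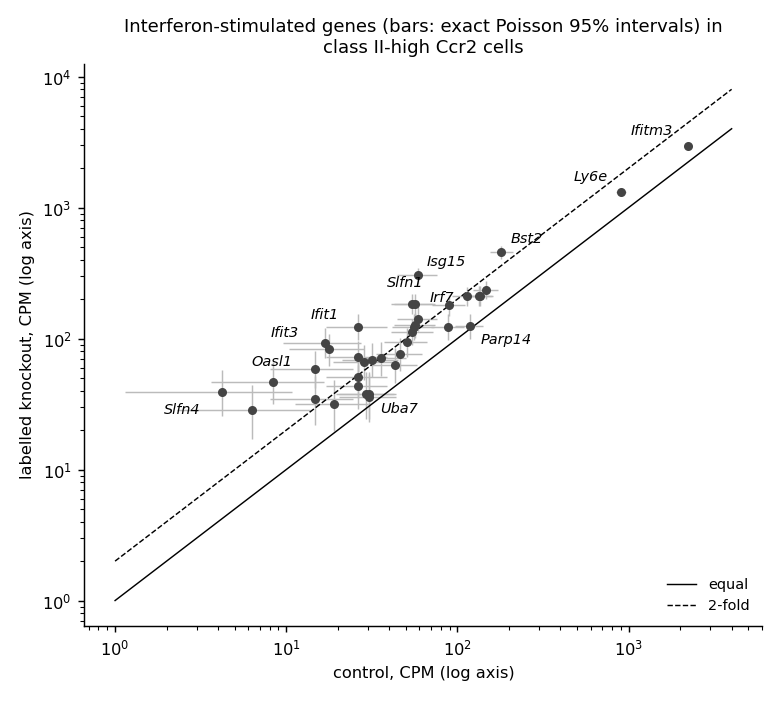
Levels of the 38 measured interferon-stimulated genes in class II-high Ccr2 cells, control library (x axis, CPM) against the library labelled knockout (y axis, CPM), both on log axes, with lines of equal level and of 2-fold difference. All 38 points lie above the line of equal level, from Parp14 (118 and 125 CPM) to Isg15 (58.8 and 303 CPM).

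The difference in summed list UMIs was spread over many cells. With each cell thinned to 1000 UMIs, 85 of 117 control cells (72.6%, 63.6 to 80.5%) and 70 of 79 cells of the library labelled knockout (88.6%, 79.5 to 94.7%) had at least 3 UMIs of the list. The median cell held 4 and 6 list UMIs, and the middle 50% of cells spanned 2 to 7 and 4 to 12. The highest cell, with 49 list UMIs, was a control cell, and the highest of the library labelled knockout had 29. Unthinned, 100% and 98.8% of cells had at least 3 list UMIs. Control class II-high Ccr2 cells thus already held transcripts of the list, and the distributions of both libraries overlapped. These counts lean on abundant genes. Ifitm3 alone stood at 2225.5 of the list's 5064 CPM in control and 2943 of 8484 in the library labelled knockout. After thinning, Isg15 was found in 4.27% of control cells and 13.9% of cells of the library labelled knockout, and Ifit3 in 2.56% and 7.59%.

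The same list was higher in the library labelled knockout in the other populations as well. Its median ratio was 1.66 in classical monocytes (36 of 41 genes at least 2-fold higher and 0 lower, against 1.8% and 0.667% of all genes), 1.5004 in cDC2 (30 of 40 and 0, against 1.79% and 0.813%), 0.97 in C1q macrophages (19 of 41 and 0, against 0.665% and 0.159%) and 0.69 in B cells (15 of 37 and 0, against 0.901% in each direction). By this median the class II-high Ccr2 cells, at 0.98, lay with the C1q macrophages and below the classical monocytes and cDC2. By the fold of the summed level they lay between B cells (1.32) and C1q macrophages (2.03), at 1.68. It was 2.08 in cDC2 and 2.44 in classical monocytes. Abundant genes such as Ifitm3 weigh most on the summed level. Their thinned shares with at least 3 list UMIs, 72.6% and 88.6%, lay near those of cDC2 (71.0% and 91.1%), above those of C1q macrophages (49.6% and 72.9%) and below those of classical monocytes (85.4% and 97.1%). The thinned shares are levels within each library and do not rank the difference between the libraries. By the median and by the summed fold, classical monocytes were highest, cDC2 next and B cells lowest. Class II-high Ccr2 cells and C1q macrophages changed places between these 2 measures. No test of these differences was possible with 1 library per group. Macrophage genes outside the rule, markers of another cell type in B cells, cDC2 and classical monocytes, had summed levels 2.67-fold in B cells, 2.38-fold in cDC2, 1.32-fold in classical monocytes, 0.942-fold in C1q macrophages and 0.952-fold in class II-high Ccr2 cells, library labelled knockout over control. Their part in the interferon values was not tested. The limit on Ccl2, Ccl7 and Ccl12, chemokines that interferon also induces, is part of the rule for members. It was not applied to the other populations, and its part in this order was not tested. Isg15 stood at 65.7 and 746 CPM in classical monocytes, 55.9 and 481 in cDC2, 73.1 and 375 in C1q macrophages and 10.3 and 110 in B cells.

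**Figure D4:**
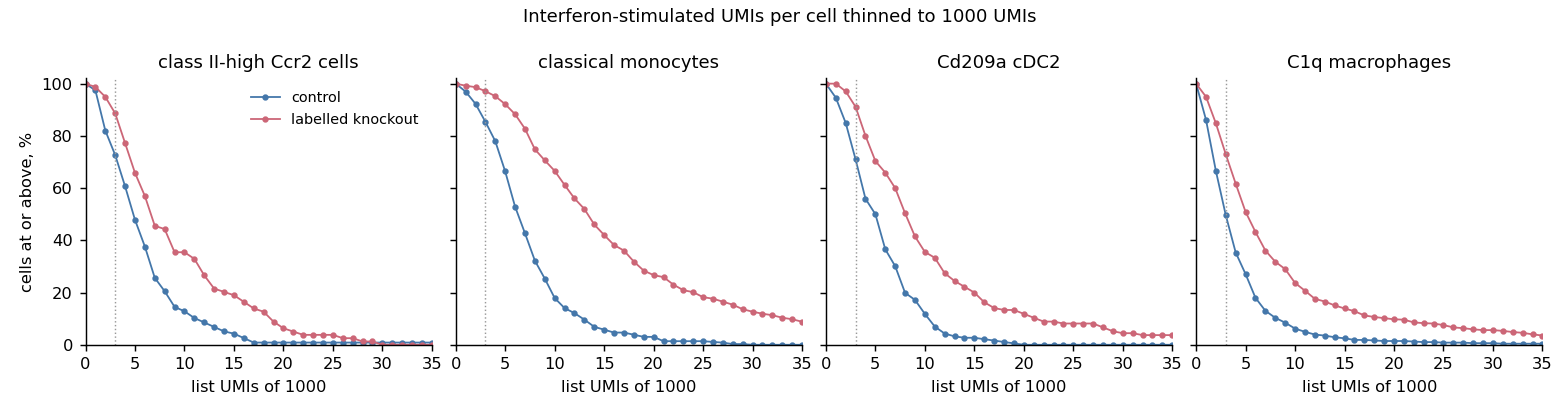
Percent of cells (y axis) with at least a given number of interferon-stimulated UMIs among 1000 thinned UMIs (x axis) in class II-high Ccr2 cells, classical monocytes, cDC2 and C1q macrophages, for the control library and the library labelled knockout, with a dotted line at 3 UMIs. At 3 UMIs the class II-high Ccr2 cells stand at 72.6% and 88.6% and the classical monocytes at 85.4% and 97.1%.

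Receptors and signalling genes of the interferon pathways had no common direction. Of 16 measured genes, 9 had a positive ratio, the median was 0.22, and Usp18 alone was at least 2-fold higher. Ifnar1, a chain of the type I receptor, stood at 123 CPM in control and 107 in the library labelled knockout, within counting error. Ifngr1, the ligand-binding chain of the interferon-gamma receptor, stood at 361 and 191 CPM, in 94 and 54 cells, 1.89-fold lower (1.54 to 2.34), and was lower in both sex subsets, with log2 ratios of -0.89 and -0.82.

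Of 19 interferon-gamma-associated genes, 16 had a positive ratio, with a median of 0.48, and 4 were at least 2-fold higher, namely Cxcl9, Cxcl10, Irgm1 and Irgm2. Cxcl10, a chemokine of the same receptor as Cxcl9, stood at 83.0 CPM in 6 control cells and 206 CPM in 14 cells of the library labelled knockout, and 26.4% of its UMIs came from 1 cell. Irgm1, a GTPase that acts on vacuoles holding microbes, stood at 30.5 and 75.1 CPM. Cd274, the checkpoint ligand PD-L1, stood at 62.0 and 52.6 CPM, within counting error. Thinned to 1000 UMIs, 24.8% of control cells and 40.5% of cells of the library labelled knockout had at least 3 UMIs of this list. Unthinned, the shares were 95.7% and 90.4%.

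Class II genes outside the rule were near equal. Of 10, 5 had a positive and 5 a negative ratio, with a median of 0.12, and 0 differed 2-fold. Cd74 had a ratio of -0.01, and Ciita stood at 152 CPM in control and 192 in the library labelled knockout, within counting error. H2-DMa stood at 751 and 894 CPM, and H2-Ob, a chain of H2-O, at 47.3 and 25.5, 1.85-fold lower. In Xist cells the ratio of H2-Ob was positive. Class I genes leaned one way by small amounts, with 17 of 19 ratios positive, a median of 0.34 and 0 genes at 2-fold on the log2 scale of CPM plus 5. H2-K1, a classical class I heavy chain, stood at 1160.0 and 1409 CPM and B2m, the light chain, at 1767 and 2058. H2-Q7 stood at 62.0 and 128 CPM, a CPM ratio of 2.06 (1.46 to 2.92) and 0.99 on the log2 scale of CPM plus 5, a gene that shares reads with near-identical H2-Q genes.

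Over all members, most classical monocyte genes had a positive ratio and most nonclassical ones a negative ratio, and neither median kept its sign in both sex subsets. Of 11 classical monocyte genes outside the rule, 8 had a positive ratio, with a median of 0.31, and Ly6c2 and Fn1 were at least 2-fold higher. Ly6c2 stood at 43.1 CPM in control and 287 in the library labelled knockout, 6.66-fold higher (4.73 to 9.58). It has a near-identical copy in Ly6c1, so the split of reads between them is uncertain. After thinning it was found in 4.27% of control cells and 16.5% of cells of the library labelled knockout. It was higher in both sex subsets, by 1.86 and 4.68. Plac8, a cysteine-rich protein of monocytes, was 1.41-fold higher and also positive in both, by 1.29 and 1.46. Neither difference was particular to the members. Between the libraries Ly6c2 was also higher in C1q macrophages (5.72-fold), cDC2 (5.66-fold), classical monocytes (3.89-fold) and B cells (2.09-fold). Plac8 was 2.40-fold, 2.215-fold, 1.49-fold and 1.55-fold higher in the same populations. Fn1 stood at 542 and 1092 CPM in 48 and 33 cells, 2.01-fold higher (1.80 to 2.26), with log2 ratios of 1.996 in Xist cells and -3.02 in Y cells. The list's median was 1.03 and -0.12 in the same subsets.

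Of 11 nonclassical monocyte genes, 9 had a negative ratio, with a median of -0.37, and Adgre4 was at least 2-fold lower. Cx3cr1, the fractalkine receptor, stood at 229 CPM in 57 control cells and 119 CPM in 27 cells of the library labelled knockout, 1.93-fold lower (1.49 to 2.53). Its log2 ratio was -1.97 in Xist cells and 0.57 in Y cells. Fcgr4, an activating Fc receptor, stood at 108 and 69.1 CPM, with ratios of -0.87 and 0.91. The list's medians in the subsets were 0.09 and 0.04.

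Dendritic cell genes showed no common direction. Of 12 genes of the cDC2 list, 5 had a positive ratio, with a median of -0.08. Clec10a, a galactose-type lectin, stood at 171 CPM in 46 control cells and 51.1 CPM in 18 cells of the library labelled knockout, 3.35-fold lower (2.31 to 5.01), and was lower in both sex subsets, with log2 ratios of -2.78 and -0.53. Mgl2, its close paralog, was higher in sum, as given above, and reads of such a pair can be split between the copies. Ccl17, a chemokine for Ccr4, stood at 10.5 and 493 CPM, but 86.4% of its UMIs came from 1 cell.

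Some Fc receptor and Ms4a genes were higher in the library labelled knockout. Of 11, 9 had a positive ratio, with a median of 0.32, and Fcgr1 and Ms4a4c were at least 2-fold higher. Fcgr1, the high-affinity receptor for IgG, stood at 122 CPM in 55 control cells and 259.9 CPM in 57 cells of the library labelled knockout, 2.13-fold higher (1.68 to 2.72). Ms4a4c, a membrane protein of monocytes, stood at 199 and 533 CPM in 69 and 66 cells, 2.69-fold higher (2.24 to 3.22). Both were higher in both sex subsets, Fcgr1 by 0.54 and 1.68 and Ms4a4c by 1.00 and 1.94.

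Chemokines and inflammatory genes were mixed. Of 12 chemokines outside the rule, 9 had a positive ratio and 5 were at least 2-fold higher, with a median of 0.37. Of those 5, Ccl17, Ccl24 and Cxcl10 each had over 25% of their UMIs in 1 cell. Pf4 stood at 72.5 CPM in control and 16.5 in the library labelled knockout. Of 16 genes associated with NF-kB, 9 had a positive ratio, with a median of 0.05. Il1rn, the antagonist of the interleukin-1 receptor, stood at 38.9 and 110 CPM, 2.82-fold higher (1.87 to 4.31). Il1b stood at 366 and 598 CPM, 1.64-fold higher, with log2 ratios of -0.83 and 2.72 in the sex subsets. Nfkbia, Nfkb1, Relb and Zfp36 lay within 0.10 of equal on the log2 scale.

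Macrophage genes outside the rule had a median of 0.05, with 5 of 10 positive. Apoe stood at 1223 CPM in control and 892 in the library labelled knockout, Trem2, a lipid receptor, at 106 and 55.6, and Csf1r, the receptor for macrophage growth factor, at 338 and 240.4. Apoe was found in 41.0% of control cells and 51.8% of cells of the library labelled knockout, and with cells counted equally its log2 ratio was 0.20 and the log2 ratio of Trem2 was 0.0170. Spp1, the osteopontin gene, stood at 136 and 356 CPM, with 31.1% of its UMIs in 1 cell. Of 12 lysosomal genes, 9 had a negative ratio, with a median of -0.27, and Cd63 was at least 2-fold lower. Ctsd, an aspartic protease of lysosomes, stood at 709 and 399.6 CPM, 1.77-fold lower (1.54 to 2.05), with log2 ratios of -1.01 and -0.21 in the sex subsets. Of 16 cell cycle genes, 12 had a negative ratio, with a median of -0.39. Mki67 stood at 126 and 93.1 CPM, and Mcm5, a subunit of the replicative helicase, at 36.8 and 12.02.

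By their medians, the remaining lists lay near the median of all genes. In summed level the dissociation stress list was lower, at 4274 CPM in control and 3543 in the library labelled knockout, 0.829-fold (0.787 to 0.872). Glycolysis and hypoxia genes had a median of -0.02 with 7 of 15 positive, and costimulators and checkpoint ligands 0.20 with 9 of 14 positive. Alternative-activation genes outside the rule had -0.18 with 3 of 7, chemokine receptors outside the rule -0.18 with 3 of 6, and dissociation stress genes -0.12 with 3 of 12. The heat-shock genes Hspa1a and Hspa1b were at least 2-fold lower, at 210.2 and 94.6 CPM and at 224 and 58.6 CPM, near-identical copies of which the second had 38.9% of its UMIs in 1 cell. Fos, an immediate early gene, stood at 831 and 562 CPM.

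**Figure D5:**
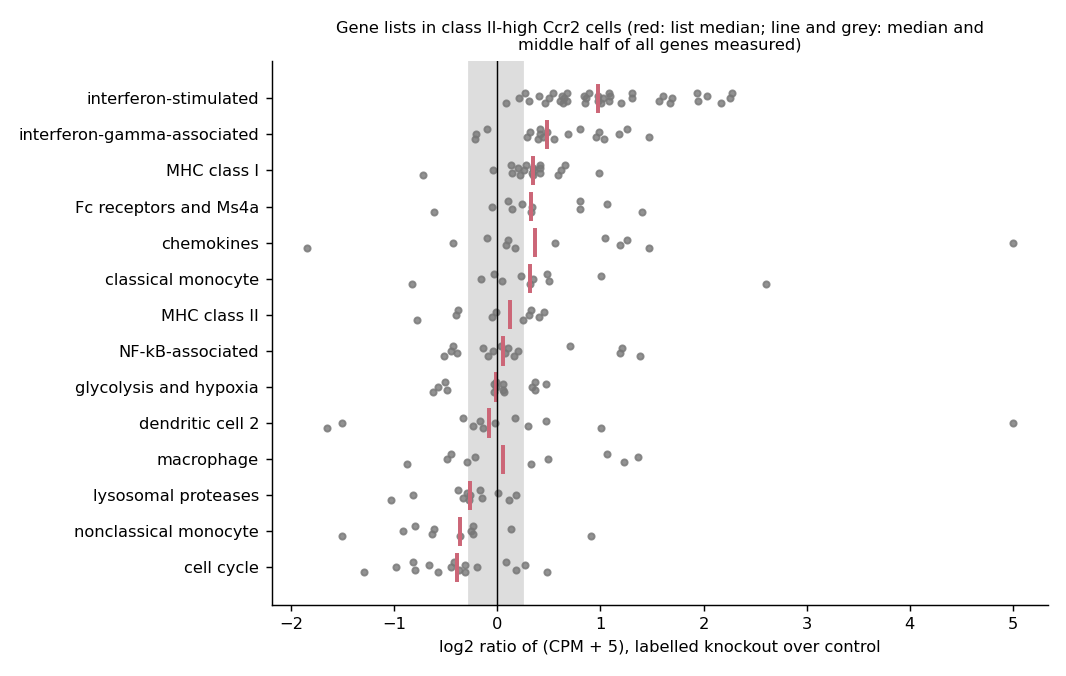
Log2 ratio of CPM plus 5, library labelled knockout over control, in class II-high Ccr2 cells for each measured gene (points) of 14 lists, genes of the rule left out, with the list medians in red and the median and middle 50% of all 7082 genes measured (-0.27 to 0.25) as a line and a grey band. The interferon-stimulated list stands highest, with a median of 0.98 and no gene below 0.

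Outside the lists, the genes with the largest ratios among those with at least 100 UMIs and no dominant cell included more interferon-responsive genes. Over all genes with at least 100 UMIs, 29 were at least 2-fold higher and 14 at least 2-fold lower. Those counts include genes of the lists and genes with a dominant cell. The share they make up at that depth is not given here, so they are not set against a background. Ly6a, the antigen Sca-1, stood at 194 CPM in 38 control cells and 718 CPM in 45 cells of the library labelled knockout, 3.69-fold higher (3.11 to 4.40). Ifi27l2a, an interferon-induced mitochondrial protein, stood at 599 and 1666 CPM in 75 and 74 cells, 2.78-fold higher (2.51 to 3.08). Both were higher in both sex subsets, Ly6a by 1.93 and 2.45 and Ifi27l2a by 1.51 and 2.13. Gadd45b, a stress-response gene, was 3.66-fold higher, and Cd72, an inhibitory receptor, 2.28-fold, from 83.0 to 189 CPM. Bcl2a1a, Bcl2a1b and Bcl2a1d, survival genes of a near-identical family whose reads cannot be assigned with certainty, were 3.16-fold, 2.34-fold and 2.17-fold higher. In Y cells the ratio of Bcl2a1b was negative. Tuba1a, Klrk1, Pmvk, Fdps, Psmb3 and Snrnp27 completed the 12 highest, between 1.95-fold and 2.26-fold.

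After Lyz2, Klf2 had the lowest ratio. This transcription factor of quiescence stood at 109 CPM in 42 control cells and 31.5 CPM in 17 cells of the library labelled knockout, 3.46-fold lower (2.15 to 5.83). Smpdl3a, a phosphodiesterase, was 2.78-fold lower (1.87 to 4.23), Gsr, glutathione reductase, 2.67-fold (1.84 to 3.94) and Cd93, a lectin-like receptor, 2.53-fold (1.75 to 3.75). Hmox1, the heme-degrading oxygenase, stood at 225 and 105 CPM in 56 and 24 cells, 2.14-fold lower (1.63 to 2.84). Klf2, Smpdl3a, Gsr and Hmox1 were lower in both sex subsets, Klf2 with log2 ratios of -1.46 and -1.36 and Hmox1 with -1.11 and -2.12. Cd93 had -1.83 in Xist cells and 0.38 in Y cells. Tmcc1, Acp5, Osbpl8, Gpr141, Pla2g7 and Mef2c completed the 12 lowest, between 1.95-fold and 2.198-fold.

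Markers of other cell types were few among the members, with the exception of neutrophil genes. Plasmacytoid dendritic cell markers and those of basophils and mast cells were at 0 UMIs in both libraries. The T cell list had 2 UMIs in control and 5 in the library labelled knockout, with Cd3e, Cd3g and Lck at 0, and the B cell list had 9 and 4, with Ms4a1 at 0. The natural killer cell list had 2 and 20 UMIs, the 20 in 1 cell. The melanoma list had 31 and 57 UMIs, with 39 of the 57 in 1 cell. The neutrophil list had 671 UMIs in 34 control cells, 332 of them in 1 cell, and 268 UMIs in 13 cells of the library labelled knockout, 251 of them in 1 cell. Its summed level was 705 and 403 CPM, and its part in the ratios above was not tested.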

How the data were processed

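Immune cells sorted from pooled tumors were counted in 1 droplet library per group, 4 tumors each. The files the authors deposited hold raw UMI counts, one for each gene in each barcode, from Cell Ranger 3.0.1 on mm10, per the submitters' processing notes, and no normalization was applied. Whether introns were counted and how reads shared by near-identical genes were treated was not given in the sources used here. The files hold 7754 control barcodes and 6063 of the library labelled knockout, with 43412346 and 48167632 UMIs, a median of 2600 and 4455 and a minimum of 500 per barcode.

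Barcodes with fewer than 200 genes or over 10% mitochondrial UMIs were dropped, and the rule was applied to raw UMIs. Doublets were not removed in the main analysis, and removing the highest scores of a doublet caller is an alternative. UMIs were summed per library and population, expressed as CPM, and compared as log2 of CPM plus 5 where both libraries together held at least 20 UMIs of the gene. CPM has exact Poisson intervals, folds exact conditional binomial intervals, and shares exact Clopper-Pearson intervals, all at 95%. UMIs of 1 cell are not independent, so intervals are too narrow for differences between cells, and they hold nothing on the spread between mice.

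The members, the 28 gene lists and the tests were chosen with earlier results of these data known. Of 335 listed genes, 5 are not in the feature table of 27998. Named genes are those of the lists and markers. Outside them, the text names from the 12 highest and 12 lowest ratios between libraries, and from the 10 highest and 10 lowest by the smaller of the within-library ratios to each comparison population, with at least 100 UMIs and no cell holding over 25% of them. Ribosomal, mitochondrial, predicted, Xist and Y-linked genes were left out of that ranking. Promoters were matched by symbol to a RefSeq table on GRCm38.p6. Python 3.11.15, numpy 2.4.6, scipy 1.17.1, pandas 2.3.3, scanpy 1.11.5 and scikit-learn 1.9.0 were used, and the ratios were tested on simulated data. Alternatives covered the limits on mitochondrial UMIs, detected genes, class II and Ccr2, doublets, depth, host sex, pseudocount, minimum UMIs, equal weight per cell, centring and the denominator of the share. Leaving out genes with over 25% of their UMIs in 1 cell was added after seeing the data.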

Additional observations from a re-analysis of the deposited data

Results flagged for a closer look

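Opposite signs in Xist cells and Y cells were common, and 4 cases are given here. They are 2 genes whose counting intervals leave out equal levels in both subsets and 2 lists whose medians lie at least 0.5 from 0 in both. Ear2, Cx3cr1, Fcgr4, Cd93 and the classical monocyte list, among others, also took opposite signs without meeting these limits. The log2 ratio of Fn1, library labelled knockout over control, was 1.996 in Xist cells (27 control cells and 69 of the library labelled knockout) and -3.02 in Y cells (57 and 7 cells). Il1b had -0.83 and 2.72. The chemokine list outside the rule had medians of 0.60 and -0.83, and the cDC2 list 0.51 and -0.53. None of these differences between the subsets was tested, and 7 cells carry the second value of each.

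Xist, which is in no comparison between the libraries, stood at 869.9 CPM in class II-high Ccr2 cells of the library labelled knockout and at 329 CPM in control, above the control level.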

How the results depend on the processing

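No paired analysis was possible because each group is 1 pooled library with no replicate numbers. Over 16 alternatives the interferon-stimulated median stayed between 0.77 and 1.34, the interferon-gamma-associated median between 0.17 and 0.72, and the class II median between 0.03 and 0.30. The classical monocyte median, 0.31, was 1.03 in Xist cells and reversed to -0.12 in Y cells. The log2 ratio of the members' share, -0.19, ranged from -0.76 to 0.12 over 11 alternatives. It was -0.60 with at least 1000 detected genes and -0.60 with 3000 to 15000 UMIs, both beyond counting error. In Y cells it was -0.76, and with Ccr2-positive barcodes as denominator -0.63. The count of genes at least 2-fold higher, 111, was 250 in Xist cells, 283 in Y cells, 179 with a pseudocount of 1 CPM, 29 at 100 UMIs or more, 225 with no minimum and 173 with cells counted equally. The count of lower genes, 152, was 702 in Y cells, 261 with the smaller pseudocount, 14 at 100 UMIs or more and 318 with no minimum. Values past counting error that reversed were as follows. With a class II sum of at least 2%, Rsad2 had -0.83, Ccr2 0.043, F13a1 0.52 and Apoe 0.35, and the log2 ratio of Plac8 was -0.0598. With 3000 to 15000 UMIs Mgl2 had -0.21. In cells with Xist, Ccr2 had 0.10, Mgl2 -0.27, Ear2 0.50, H2-Ob 0.20 and Il1b -0.83. In cells with a Y-linked UMI, the chemokine list had -0.83, Ifnar2 0.15, Fgl2 -0.79, Mgl2 -1.74, Fn1 -3.02, Vcan -0.12, Cx3cr1 0.57, Fcgr4 0.91, Bcl2a1b -1.41 and Cd93 0.38. With cells counted equally, Apoe had 0.20 and the log2 ratio of Trem2 was 0.0170. The cause was not tested. Of all values under alternatives, 1270 stayed within their limits, 147 moved and 24 reversed. The limits were counting intervals for genes and the share, and a fixed factor for counts of genes. For a list they were the medians of the lower and of the upper bounds of its genes. List medians whose limits hold 0 also changed sign and are not among the 24. The nonclassical monocyte median, -0.37, was 0.09 in Xist cells and 0.04 in Y cells, and the cDC2 median, -0.08, ranged from -0.53 to 0.51. Doublet removal took 5 control members and 0 of the library labelled knockout. Depth limits genes near 20 UMIs, for which a 2-fold ratio lies within counting error.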
